A study of Mus musculus with 24 samples.

Results

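Tdg, 1190007I07Rik, Gm9855 and A930033H14Rik are 4 of the 43346 genes counted in RNA of mouse brain cortex. All lie on chromosome 10, as does Abca7, the gene that was targeted in the mice. They were chosen by their counts, which differed between the genotype labels, so their genotype differences are given below as a description without a test. The stimulus played no part in the choice, and its effects on the 4 genes were tested.

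The study set mice heterozygous for Abca7, a transporter of lipids across membranes that is linked to Alzheimer's disease in people, beside control mice, and asked how Abca7 relates to inflammation in the brain. Animals of either label were injected with lipopolysaccharide (LPS, a component of the bacterial outer membrane that triggers innate immune signalling) or had no stimulus. This gave 4 groups of 6 libraries: labelled Abca7 with LPS, labelled Abca7 unstimulated, control with LPS, and control unstimulated. The mice were 54 to 58 days old, with 54 to 56 days in the LPS groups and 55 to 58 days in the unstimulated groups. The sources used here do not give strain, sex, the design of the Abca7 allele, or the dose, route and timing of LPS. Replicate numbers name libraries and pair nothing. The libraries were taken as separate animals because each title carries its own number. Where that does not hold, p-values measure only the spread between libraries.

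Thymine DNA glycosylase, the product of Tdg, starts base excision repair: it cuts thymine out of G·T mismatches and removes 5-formylcytosine and 5-carboxylcytosine, the products of TET enzymes. The excised site is then refilled with an unmodified cytosine, which makes the enzyme a step of active DNA demethylation. 1190007I07Rik encodes a small peptide of the inner mitochondrial membrane, known in people as Brawnin or UQCC6, that is needed to assemble respiratory complex III. Gm9855 is a processed pseudogene of Tdg, that is, a copy of the spliced messenger RNA inserted elsewhere in the genome. A930033H14Rik is annotated as protein-coding, and no role is given for it here.

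Each library held 48149131 to 75741388 counts, and loci of the ribosomal RNA repeat took 5.876 to 18.668% of them. Levels are in CPM, which sets every library to the same total, with TMM factors that correct the totals for composition. Neuronal markers, a check of nervous tissue and not of cortex alone, summed to at least 4320 CPM in every library. Of 3 listed striatum markers 2 were tested, Adora2a and Rgs9, and they summed to 105 to 163 CPM over the libraries. Markers of the choroid plexus, a neighbouring tissue, were not even between groups. Its list of 4 genes summed to a median of 287 CPM in labelled Abca7 LPS libraries, 420 in labelled Abca7 unstimulated, 273 in control LPS and 19.2 in control unstimulated libraries. A pair of thalamus markers, Tcf7l2 and Prkcd, also differed with the stimulus, at medians of 79 CPM in labelled Abca7 LPS, 25.6 in labelled Abca7 unstimulated, 85.9 in control LPS and 29.2 in control unstimulated libraries. The part of these tissues in the results below was not tested, apart from the fits with Ttr. Abca7 itself (chr10:79996494-80015572) was not lower in the libraries labelled Abca7. It had 25.2 to 34.8 CPM there, against 20.6 to 32.2 CPM in the control libraries. The fitted log2 fold change was 0.21 ± 0.05 (SE, n = 12 each; edgeR quasi-likelihood adjusted p = 0.0461, and 0.0639 without control LPS replicate 4). The label is therefore used below as a name, and a genotype difference means libraries labelled Abca7 over libraries labelled control.

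A control library went against its label. Control LPS replicate 4 had 151 counts of Gm9855, while the 5 other control LPS libraries had 3 to 14, the control unstimulated libraries 2 to 8, and the 12 libraries labelled Abca7 had 78 to 195. On the log2 CPM scale its Gm9855 level was 1.01, beside group means of 1.05 in labelled Abca7 LPS and -2.51 in the other control LPS libraries. Its Tdg (4.58) and 1190007I07Rik (1.68) levels were also nearer the labelled Abca7 LPS means of 4.50 and 1.89 than those of the other control LPS libraries, 4.79 and 2.20. A930033H14Rik was 0.95 in it, nearer its own group (0.68) than labelled Abca7 LPS (1.23). Away from chromosome 10, 14 genes differed by genotype label when this library was left out, and it lay nearer the labelled Abca7 LPS mean in 1 of them. Other libraries also lay nearer the other label's mean for some genes. Labelled Abca7 LPS replicate 4 did so in 4 of 8 chromosome 10 genes and 37 of 74 others, labelled Abca7 LPS replicate 5 in 3 of 6 and 19 of 46, and control LPS replicate 6 in 4 of 11 and 73 of 111. Further libraries did so away from chromosome 10, such as labelled Abca7 unstimulated replicate 3 (52 of 83 genes) and replicate 1 (26 of 51). Control unstimulated replicate 4 (31 of 62) and control LPS replicate 5 (28 of 53) were others. In each of these other libraries Gm9855 was nearer the mean of its own group. Whether the mouse of control LPS replicate 4 carried another genotype than its label says was not tested, and results that rest on it are given with and without it.

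**Figure D1:**
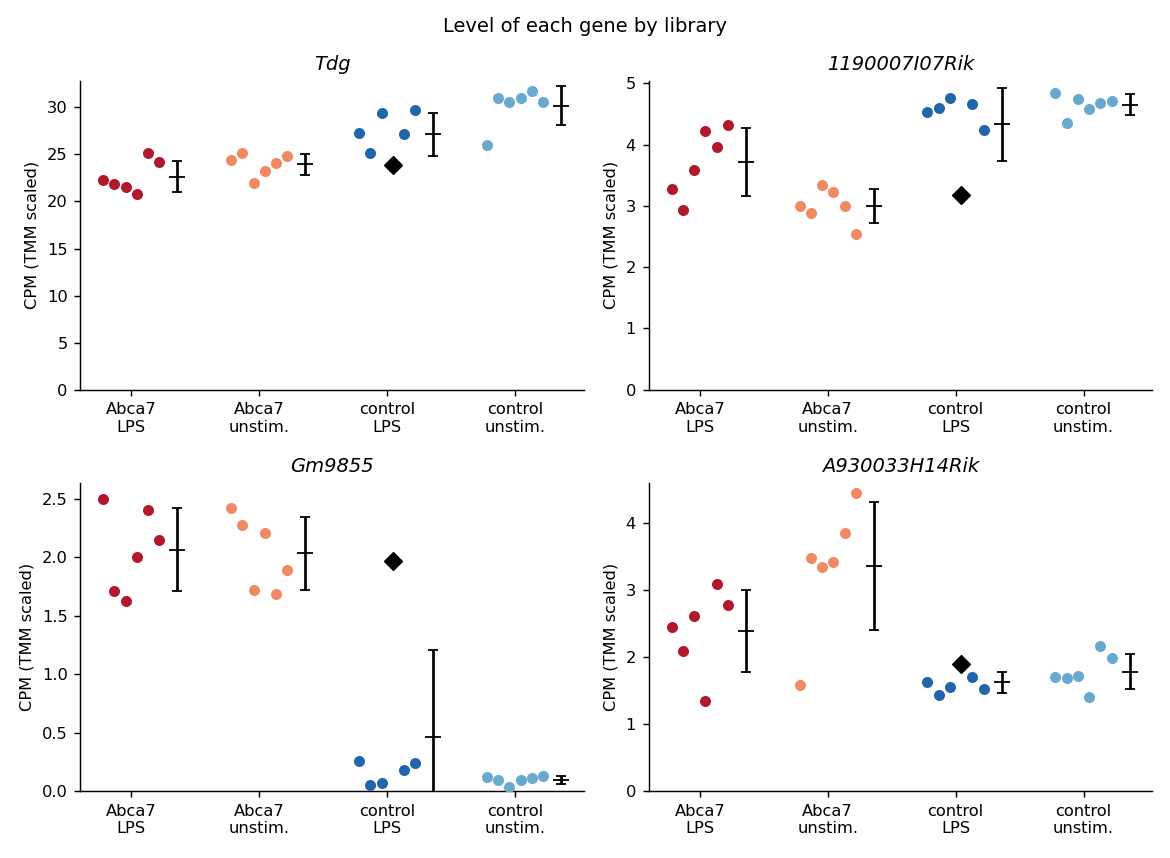
CPM (y axes, from 0) of the 4 genes in each of the 24 libraries, 1 point a library, with the mean and SD of each group of 6 beside its points. The black diamond is control LPS replicate 4, which sits at 1.97 CPM of Gm9855 while every other control library is at or below 0.259 CPM.

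Tdg (ENSMUSG00000034674, chr10:82629828-82650799 on mm10, + strand, 11 annotated transcripts) was the most abundant of the 4 genes, with 4.83 CPM per kb of exon. 1190007I07Rik (ENSMUSG00000063320, chr10:82619851-82623228, - strand) had 3.28 CPM per kb. These genes are neighbours that point away from each other across a gap of 6600 bases. Their gaps to Abca7 are 2.61 and 2.60 Mb. Gm9855 (ENSMUSG00000085666, chr10:42054113-42055306, - strand, 1 exon) averaged 0.977 CPM per kb and lies 37.9 Mb from Abca7. A930033H14Rik (ENSMUSG00000090622, chr10:69209762-69213098, - strand, 2 exons) averaged 0.77 CPM per kb and lies 10.8 Mb from Abca7. Its whole span of 3337 bases lies inside Rhobtb1, a gene of the opposite strand. None of the 50-base sequences of A930033H14Rik transcripts (0.0%) occurs in a transcript of another gene, Rhobtb1 included. Unspliced Rhobtb1 RNA would cross this span on the other strand, and the sources used here do not give the strand setting of the counting.

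Gm9855 and Tdg are close enough in sequence to share reads. The 1194 bases of Gm9855 aligned without a gap to the coding part of the transcript Tdg-201 (GENCODE M21), from the start codon to the stop codon, with 9 mismatches (99.2% identity) and an identical run of 756 bases. RefSeq gives this locus, as Tdg-ps2, a longer span of 2896 bases (chr10:42052558-42055453) and the type transcribed pseudogene. The alignment and the Gm9855 counts here cover the 1194 bases only. Of all 50-base sequences of Gm9855, 76.5% also occur in a Tdg transcript. Of those of Tdg, 41.2% occur in some other gene, and 15.8% in Gm9855. A read from the opening stretch fits either gene, since its first 60 bases, positions 1 to 60 counted from the A of the start codon, are the same in both.
Tdg and Gm9855, positions 1 to 60: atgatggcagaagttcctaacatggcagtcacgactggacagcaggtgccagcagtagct

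The stretch with the most mismatches shows where reads can be placed. It covers positions 1042 to 1101, which lie at chr10:82648069-82648627 in Tdg, across an exon junction, and at chr10:42054206-42054265 on the - strand in Gm9855. Capitals mark the bases that differ.
Tdg, positions 1042 to 1101: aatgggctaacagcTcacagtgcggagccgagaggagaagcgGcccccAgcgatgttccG
Gm9855, positions 1042 to 1101: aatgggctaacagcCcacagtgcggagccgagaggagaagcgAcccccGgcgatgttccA
The 4 substitutions there are T1056C, G1084A, A1090G and G1101A, with the base of Tdg first. The others are A98C, A855G, G877A, G879C and T993C, so 8 of the 9 lie in the last part of the coding sequence, beyond the identical run. Substitutions are those of the reference genome, and what the mice of either label carry at these bases was not analysed here.

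Gm9855 showed the widest difference between labels. It had 1.63, 2.08 and 2.5 CPM (lowest, median, highest) in labelled Abca7 LPS libraries, and 1.69, 2.05 and 2.42 CPM in labelled Abca7 unstimulated libraries. In control LPS libraries it had 0.0535, 0.213 and 1.97 CPM, and in control unstimulated libraries 0.0355, 0.109 and 0.128 CPM. The labels did not overlap without LPS, as for 0.26% of all genes. Under LPS they overlapped through control LPS replicate 4 only, and the highest of the other 5 was 0.259 CPM. The log2 fold change was 3.19 ± 0.37 over both stimuli, 4.31 ± 0.57 without LPS and 2.07 ± 0.45 under LPS. Without control LPS replicate 4 these values were 3.99 ± 0.18, 4.30 ± 0.25 and 3.67 ± 0.25. With that library left out, the 12 libraries labelled Abca7 and the 11 control libraries did not overlap, as for no other gene (0.00457% of those tested). Since the gene was chosen by its genotype difference and the library was set aside for its Gm9855 level, nothing is read from this.

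Tdg differed in the other direction and by less. It had 20.8, 22.1 and 25.2 CPM in labelled Abca7 LPS libraries, 22, 24.3 and 25.1 in labelled Abca7 unstimulated, 23.9, 27.2 and 29.7 in control LPS and 26, 30.8 and 31.7 in control unstimulated libraries. All 6 unstimulated libraries labelled Abca7 lay below all 6 control unstimulated ones. Under LPS, 4 of the 6 labelled Abca7 libraries lay below every control library. The lowest of these controls, at 23.9 CPM, was control LPS replicate 4, and the others had 25.2 to 29.7 CPM. The log2 fold change was -0.30 ± 0.04 over both stimuli, -0.33 ± 0.06 without LPS and -0.26 ± 0.06 under LPS, and -0.31 ± 0.04 over both stimuli without control LPS replicate 4. Among the unstimulated controls, the library with the most Ttr, the main choroid plexus transcript, had the lowest Tdg level. This was replicate 1, with 26 CPM of Tdg and 261 CPM of Ttr. The other 5 had 30.6 to 31.7 CPM of Tdg and 4.94 to 19.7 CPM of Ttr. Among libraries labelled Abca7, LPS replicate 6 had 24.2 CPM of Tdg at 24.3 CPM of Ttr. The Tdg median of its group was 22.1 CPM. Labelled Abca7 unstimulated replicate 1 had 24.4 CPM of Tdg at 48 CPM of Ttr, with a group median of 24.3 CPM of Tdg. Both Tdg levels lay below the 26 CPM of control unstimulated replicate 1. With the Ttr level in the fit, the genotype log2 fold change without LPS was -0.21. The part of choroid plexus tissue in these values was not tested. In bulk tissue, fewer cells of a type and less RNA per cell cannot be told apart.

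Because reads can move between Tdg and Gm9855, their counts were also summed. Counts of the other copies of Tdg were left out of the sum. Gm9855 held 7.05 to 10.1% of the summed counts in labelled Abca7 LPS libraries and 6.56 to 9.01% in labelled Abca7 unstimulated libraries. In 5 control LPS libraries it held 0.212 to 0.941%, and in control LPS replicate 4 it held 7.63% (exact binomial 95% interval 6.50 to 8.89%). In control unstimulated libraries it held 0.116 to 0.464%. The shares of all 12 libraries labelled Abca7 and of control LPS replicate 4 thus lay far above those of the other controls. Intervals cover counting error only. The summed level was 24.7 ± 1.94 CPM in labelled Abca7 LPS, 26 ± 1.32 in labelled Abca7 unstimulated, 27.6 ± 1.90 in control LPS and 30.3 ± 2.07 in control unstimulated libraries (SD, n = 6 each). The summed log2 fold change between labels was -0.19 ± 0.04 over both stimuli, -0.22 ± 0.05 without LPS and -0.16 ± 0.05 under LPS. The sum kept the direction of Tdg at a smaller size. Since both genes were chosen by their genotype difference, nothing is read from this.

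**Figure D2:**
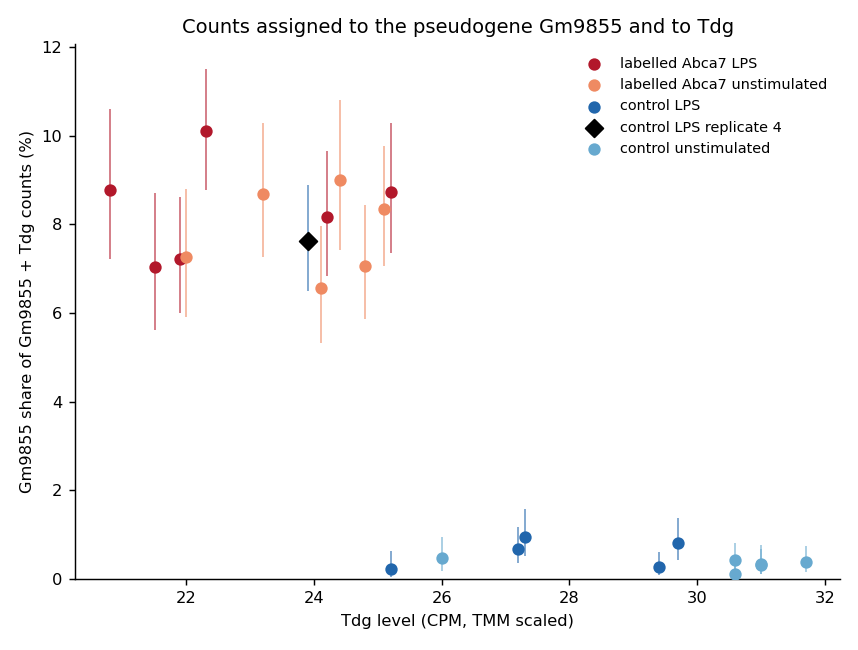
Share of Gm9855 in the summed counts of Gm9855 and Tdg (y axis, percent, with exact binomial 95% intervals) against the Tdg level (x axis, CPM) in each library, 1 point a library. Libraries labelled Abca7 lie at 6.56 to 10.1% and control libraries at or below 0.941%, apart from control LPS replicate 4 (black diamond) at 7.63%.

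Tdg has further copies in the genome, which offer a comparison. Gm5597 on chromosome 7 holds 73.3% of the 50-base sequences of Gm9855, and Gm5806 on chromosome 15, which the annotation names Tdg-ps, holds 64.7%. Gm5806 averaged 3.09 ± 0.381 CPM in libraries labelled Abca7 and 2.61 ± 0.345 CPM in control libraries (SD, n = 12 each), a log2 fold change of 0.24 ± 0.08 that did not pass the test (adjusted p = 0.188). Gm5597 averaged 0.351 ± 0.101 CPM in libraries labelled Abca7 and 0.389 ± 0.0816 CPM in control libraries, a log2 fold change of -0.14 ± 0.15 (adjusted p = 0.798). Without control LPS replicate 4 the adjusted p-values were 0.152 and 0.881. A p above the threshold does not show that these copies had equal levels under both labels.

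1190007I07Rik was lower in libraries labelled Abca7, most of all without LPS. It had 2.93, 3.77 and 4.32 CPM (lowest, median, highest) in labelled Abca7 LPS, 2.55, 3 and 3.34 in labelled Abca7 unstimulated, 3.18, 4.57 and 4.76 in control LPS and 4.36, 4.70 and 4.85 in control unstimulated libraries. The unstimulated groups did not overlap. Under LPS they did, with 1 of 6 labelled Abca7 libraries below every control library. The lowest of these controls, at 3.18 CPM, was control LPS replicate 4, and the others had 4.24 to 4.76 CPM. The log2 fold change was -0.43 ± 0.07 over both stimuli, -0.64 ± 0.10 without LPS and -0.22 ± 0.10 under LPS. Without control LPS replicate 4 the last value was -0.30 ± 0.09.

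A930033H14Rik was higher in most libraries labelled Abca7. It had 1.35, 2.52 and 3.08 CPM in labelled Abca7 LPS, 1.59, 3.45 and 4.44 in labelled Abca7 unstimulated, 1.43, 1.59 and 1.89 in control LPS and 1.41, 1.72 and 2.16 in control unstimulated libraries. In 5 of 6 labelled Abca7 libraries of either stimulus the level was above every control library of that stimulus. The exceptions were labelled Abca7 LPS replicate 4 at 1.35 CPM and labelled Abca7 unstimulated replicate 1 at 1.59 CPM. The log2 fold change was 0.74 ± 0.13 over both stimuli, 0.92 ± 0.18 without LPS and 0.56 ± 0.18 under LPS. Rhobtb1, the gene around it, had a genotype log2 fold change of 0.05 ± 0.08 (adjusted p = 0.882).

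Across all genes, 57 of 21891 (0.26%) passed an adjusted p of 0.05 by edgeR for the genotype label over both stimuli, 7 (0.032%) without LPS and none under LPS, where 1748 genes (7.99%) had an unadjusted p under 0.05. DESeq2 called 298, 31 and 37 genes in these contrasts. The edgeR calls over both stimuli were 7 of 979 genes on chromosome 10 (0.715%), and 50 of 20912 on the other chromosomes (0.239%). Since this contrast chose the 4 genes, nothing is read from their place among the calls. On chromosome 10 they held ranks 1 to 4 by p, and just outside them came Ano4 (log2 fold change -0.16 ± 0.03), Ntn4 (-0.27 ± 0.06) and Abca7 (0.21 ± 0.05), which completed the 7. The next was Matk, at 0.14 ± 0.03 and not past the threshold. When control LPS replicate 4 was left out, 18 of 22034 genes passed (0.0817%), and those on chromosome 10 were the 4 members alone (0.407% of its genes). No gene separated all 12 libraries of either label. Groups without LPS did not overlap for 57 genes (0.26%), which included Tdg, 1190007I07Rik and Gm9855. Under LPS they did not overlap for 93 genes (0.425%), none of them a member.

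**Figure D3:**
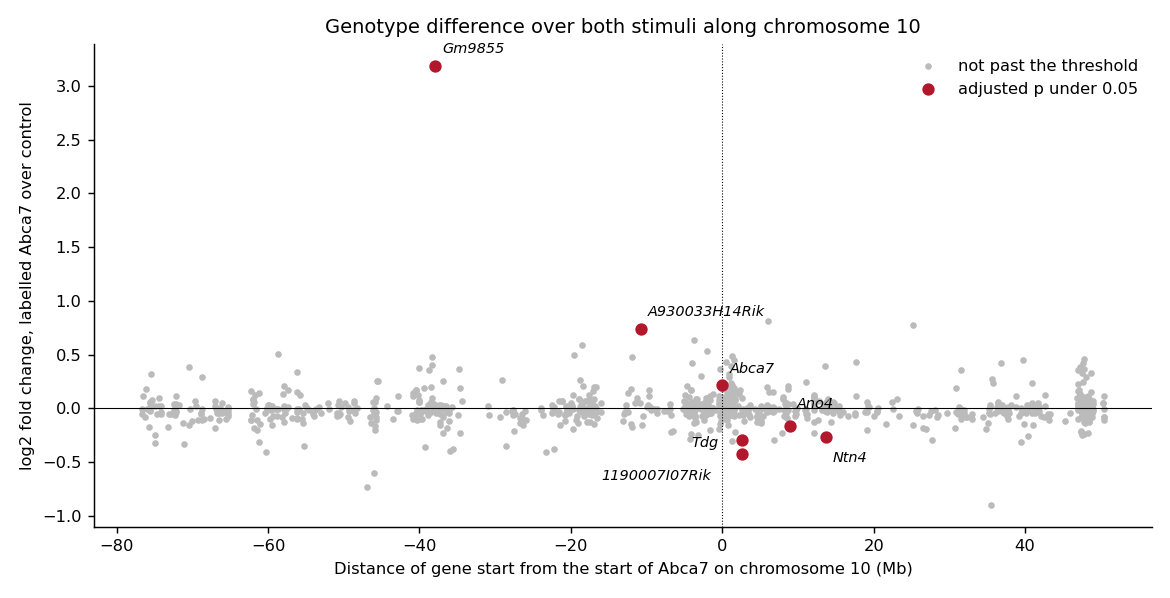
Genotype log2 fold change over both stimuli (y axis, libraries labelled Abca7 over control) of the 979 tested genes of chromosome 10 against the distance of their start from the start of Abca7 (x axis, Mb). The 7 genes past an adjusted p of 0.05 are red and named: Gm9855 stands at 3.19, and the other 6 lie between -0.43 and 0.74.

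The genes around the members did not pass the genotype test. Of 53 tested genes within 1 Mb of a member, none had an adjusted p under 0.05, and the median log2 fold change was 0.01. An unadjusted p under 0.05 was found for 11 of the 53, a larger share than among all genes (2406 of 21891, 11%). The genome-wide median rounded to 0. DESeq2 called 2 of the 53, and 298 over all genes. The smallest p belonged to Txnrd1, the cytosolic thioredoxin reductase, with 56.8 CPM in libraries labelled Abca7 and 61.4 CPM in control libraries (log2 fold change -0.12 ± 0.03, adjusted p = 0.101). Zfp433 followed at -0.22 ± 0.06 (adjusted p = 0.116), then Arid5b, a chromatin regulator, at -0.18 ± 0.05 (0.152). Ppil6 had 0.20 ± 0.07 (0.254), Ak9, an adenylate kinase, 0.36 ± 0.13 (0.26) and Gm15200 -0.13 ± 0.05 (0.278). Leaving the members themselves aside, the nearest tested genes did not pass the genotype test either. Beside Gm9855, Armc2 had 0.04 ± 0.05 (adjusted p = 0.832) and the transcription factor gene Foxo3 -0.04 ± 0.04 (0.717). Beside 1190007I07Rik, the pseudogene Ap3m1-ps had -0.01 ± 0.05. Glt8d2, which overlaps the end of Tdg by 367 bases, had 0.10 ± 0.08 (adjusted p = 0.69). Beside A930033H14Rik, Cdk1, the mitotic kinase, had -0.16 ± 0.23 at a mean of 0.335 CPM in libraries labelled Abca7 and 0.377 CPM in control libraries.

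The effect of LPS, which did not enter the choice of genes, was tested over both labels and in each. Over both labels 26.2% of all genes changed at an adjusted p of 0.05, 13.7% higher and 12.6% lower. Of the 4 genes, Tdg fell and Gm9855 rose by this rule, and each call was lost without control LPS replicate 4.

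Tdg fell under LPS by 0.12 on the log2 scale over both labels (SE 0.04, adjusted p = 0.0341). The log2 fold change was -0.08 ± 0.06 in mice labelled Abca7 (adjusted p = 0.454) and -0.15 ± 0.06 in control mice (adjusted p = 0.0638, exact permutation p = 0.0476, n = 6 each). DESeq2 called the fall in control mice (adjusted p = 0.0368), as did edgeR without control LPS replicate 3, control LPS replicate 6 or control unstimulated replicate 1 (adjusted p down to 0.0121). By edgeR the fall in control mice was not called with Ttr in the fit (log2 fold change -0.03, adjusted p = 0.911). Nor was it called without control LPS replicate 4 (-0.12 ± 0.06, adjusted p = 0.178). The LPS and unstimulated groups of Tdg overlapped under either label. The call over both labels was lost without control LPS replicate 4 (-0.10 ± 0.04, adjusted p = 0.0683), and with Ttr (adjusted p = 0.439) or age (adjusted p = 0.16) in the fit. It was also lost when the counts of Tdg and Gm9855 were summed (-0.10 ± 0.04, adjusted p = 0.0525). Leaving out any 1 of 11 libraries ended it, with adjusted p-values up to 0.0683: labelled Abca7 LPS replicates 1 to 4, labelled Abca7 unstimulated replicates 2 and 6, control LPS replicates 2 and 4, and control unstimulated replicates 2, 4 and 5. Choroid plexus markers moved with this contrast in control mice, at medians of 273 CPM under LPS and 19.2 CPM without.

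1190007I07Rik rose under LPS in mice labelled Abca7, with a log2 fold change of 0.31 ± 0.10 (adjusted p = 0.0451). The exact permutation p was 0.026 (two-sided, n = 6 each, with 0.00216 the smallest possible). Of all genes, 11.8% changed in this contrast, and 6.65% were higher. The level was 3.72 ± 0.548 CPM under LPS and 3 ± 0.277 CPM without (SD), and 4 of the 6 LPS libraries lay above every unstimulated one. In control mice the log2 fold change was -0.11 ± 0.10 (adjusted p = 0.517), and -0.03 ± 0.09 without control LPS replicate 4. The difference between these LPS effects was 0.41 ± 0.14, with an unadjusted p of 0.00644 and an adjusted p of 1.0. It was 0.34 ± 0.12 without control LPS replicate 4. Leaving out any 1 of 16 libraries moved the adjusted p of the rise in mice labelled Abca7 past the threshold, to 0.113 at most. These were labelled Abca7 LPS replicates 3 to 6, labelled Abca7 unstimulated replicates 1, 2, 5 and 6, control LPS replicates 1, 2 and 6, and control unstimulated replicates 2 to 6. Without control LPS replicate 4 it was 0.0184. The call was also lost with RLE size factors (adjusted p = 0.0503), no filter on low counts (0.0716), age (0.167) or Ttr (0.0529) in the fit.

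Gm9855 did not change under LPS in mice labelled Abca7 by this test, with 2.07 ± 0.358 CPM under LPS and 2.04 ± 0.309 CPM without (log2 fold change 0.03 ± 0.41, adjusted p = 0.982). In control mice it rose by 2.27 ± 0.63 (adjusted p = 0.0121), a contrast in which 17.3% of all genes changed and 9.39% were higher, and over both labels by 1.15 ± 0.38 (adjusted p = 0.0257). The exact permutation p in control mice was 0.141 (n = 6 each). Both calls rested on control LPS replicate 4. Without it the log2 fold change was 0.66 ± 0.35 in control mice (adjusted p = 0.238) and 0.34 ± 0.20 over both labels (adjusted p = 0.221). The counts behind the other control values were 3 to 14 per LPS library and 2 to 8 per unstimulated library.

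A930033H14Rik had a log2 fold change of -0.31 ± 0.13 over both labels (adjusted p = 0.0702), -0.49 ± 0.18 in mice labelled Abca7 (adjusted p = 0.0686, exact permutation p = 0.121, n = 6 each) and -0.13 ± 0.18 in control mice (adjusted p = 0.693). It thus did not pass the test in any of them. DESeq2 gave adjusted p-values of 0.0438 over both labels and 0.0375 in mice labelled Abca7, and edgeR with age in the fit 0.0386 and 0.0176. Without labelled Abca7 unstimulated replicate 1 or without labelled Abca7 LPS replicate 5 the calls were also made, at adjusted p-values down to 0.00569 and 0.00289. Rhobtb1 fell under LPS by 0.84 on the log2 scale (SE 0.08, adjusted p = 8.68e-10), with 3.22 ± 0.497 CPM under LPS and 5.80 ± 0.56 CPM without (SD, n = 12 each). The part of unspliced Rhobtb1 RNA in the counts of A930033H14Rik was not tested.

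The interaction of genotype label and LPS was past the threshold for none of the 21891 genes by edgeR and none by DESeq2, and 745 (3.40%) had an unadjusted p under 0.05. Its log2 value was 0.07 ± 0.08 for Tdg, -2.24 ± 0.76 for Gm9855 and -0.36 ± 0.25 for A930033H14Rik, each with an adjusted p of 1.0. For Gm9855 it was -0.63 ± 0.39 without control LPS replicate 4. The 95% interval for Tdg ran from -0.08 to 0.23.

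**Figure D4:**
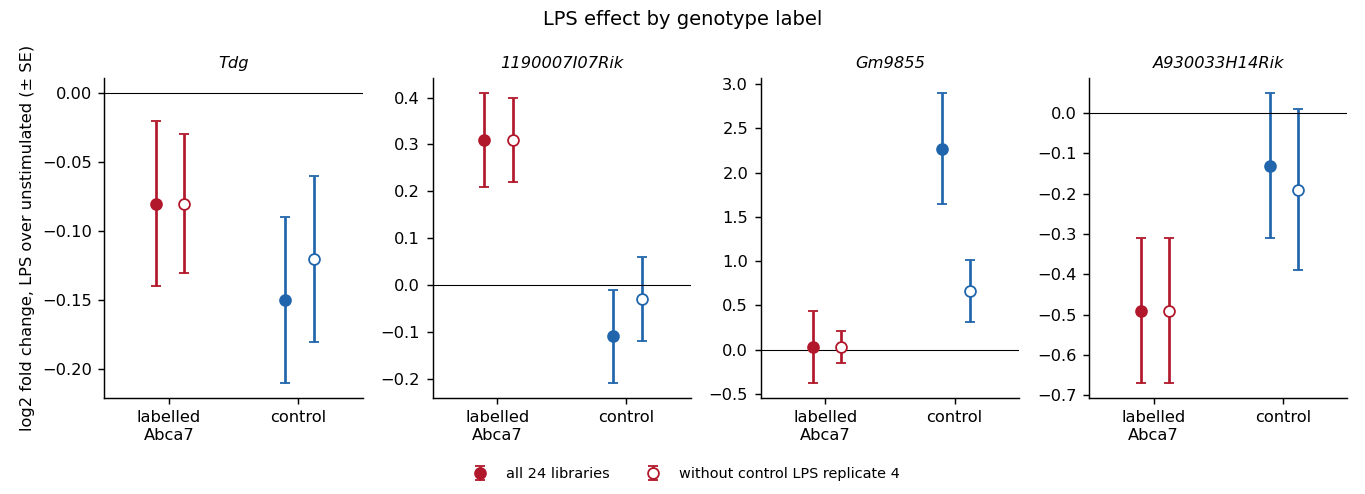
LPS effect on each gene (y axes, log2 fold change of LPS over unstimulated, ± SE) in mice labelled Abca7 (red, left) and control mice (blue, right), n = 6 each. Filled points use all 24 libraries and open points leave out control LPS replicate 4, which moves the value of Gm9855 in control mice to 0.66, against 2.27 with it.

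Other genes of base excision repair and DNA demethylation were measured as a background for Tdg. Under LPS, 7 of 36 were higher and 4 lower, where 13.7% of all genes were higher and 12.6% lower, with a median log2 fold change of 0.01 beside 0.005 for all genes. The largest change was in Gadd45g, which encodes a stress-induced protein that promotes DNA demethylation. It had 20.8 ± 2.56 CPM under LPS and 9.51 ± 1.57 CPM without (log2 fold change 1.13 ± 0.08). Gadd45b, of the same family, rose by 0.51 ± 0.09. Tet3, which makes the oxidised cytosines that Tdg removes, fell to 72.2 ± 4.11 CPM under LPS, against 96.5 ± 8.58 CPM without (log2 fold change -0.42 ± 0.04, adjusted p = 4.02e-09). Fen1, the flap endonuclease, rose by 0.17 ± 0.03 (adjusted p = 0.000214). For the genotype label none of the 36 passed and 2 had an unadjusted p under 0.05, a smaller share than the 11% of all genes. These were Ogg1, the glycosylase of oxidised guanine (0.18 ± 0.04, adjusted p = 0.072), and Dnmt1, the maintenance DNA methyltransferase (-0.05 ± 0.02, adjusted p = 0.453). DESeq2 called 1 of the 36, and 298 over all genes.

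Respiratory complex III was followed beside 1190007I07Rik. Of 16 tested subunits and assembly factors, 1 rose under LPS and none fell, where 26.2% of all genes changed, with a median of 0.03 beside 0.005 for all genes. The gene that rose was Uqcc1, an assembly factor (0.13 ± 0.03, adjusted p = 0.000374). The core subunits Uqcrc1 and Uqcrc2 each had 0.05 ± 0.02, and Smim4, a further assembly factor, 0.16 ± 0.07, none past the threshold. For the genotype label none of the 16 passed by edgeR or DESeq2, and 3 had an unadjusted p under 0.05, a larger share than the 11% of all genes. The smallest p-values were those of Uqcrfs1, the Rieske iron-sulphur subunit (-0.08 ± 0.03, adjusted p = 0.259), and Uqcr11 (0.06 ± 0.03, adjusted p = 0.415).

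The promoters of Tdg and 1190007I07Rik are shown because these neighbours were both lower in libraries labelled Abca7. The sequences are from RefSeq on GRCm38.p6, with 250 bases before and 50 from a start point on, at chr10:82629588-82629887 on the + strand for Tdg and chr10:82623179-82623478 on the - strand for 1190007I07Rik. The start point is base 82629838 for Tdg, 10 bases inside the gene as deposited, and base 82623228 for 1190007I07Rik, its deposited start. Distances are counted from these points. Capitals mark matches on either strand to CACGTG (an E-box), TGACGTCA (a cyclic AMP response element), CCAAT and GGGCGG (a GC box). TATAAA was also searched and matched neither.
Tdg: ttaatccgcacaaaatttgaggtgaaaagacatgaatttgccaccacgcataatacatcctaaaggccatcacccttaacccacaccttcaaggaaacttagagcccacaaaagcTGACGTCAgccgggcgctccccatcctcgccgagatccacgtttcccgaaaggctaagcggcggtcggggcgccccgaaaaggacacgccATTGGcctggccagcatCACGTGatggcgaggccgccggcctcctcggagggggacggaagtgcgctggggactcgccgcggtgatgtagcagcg
1190007I07Rik: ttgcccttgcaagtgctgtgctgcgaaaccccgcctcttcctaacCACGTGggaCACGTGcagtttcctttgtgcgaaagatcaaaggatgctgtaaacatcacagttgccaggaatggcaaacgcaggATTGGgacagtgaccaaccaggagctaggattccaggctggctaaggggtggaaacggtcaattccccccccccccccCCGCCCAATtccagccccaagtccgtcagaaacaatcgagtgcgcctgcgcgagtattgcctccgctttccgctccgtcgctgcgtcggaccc
CACGTG stands 28 bases before the start point of Tdg, and 205 and 196 bases before that of 1190007I07Rik. It is found in 7.2% of 32851 promoters of the same length. TGACGTCA stands 135 bases before the start point of Tdg and is found in 1.8% of promoters. CCAAT is found in 37.4% and GGGCGG in 35.7% of promoters, and in 1190007I07Rik a match to each overlaps the other. The promoter of A930033H14Rik had 78.3% G and C and 46 CpG, above Tdg (59.3%, 26 CpG), 1190007I07Rik (58.7%, 19 CpG) and the medians of all promoters (52.7%, 7 CpG). It held 3 matches to GGGCGG. A match is a description of letters, not of a bound site.

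The members were chosen by their genotype difference, which fixes much of how they vary together over all libraries. Over the 24 libraries the log2 levels of Tdg and 1190007I07Rik had a Pearson r of 0.63, those of Tdg and Gm9855 -0.82, and those of Gm9855 and A930033H14Rik 0.64. After the group means were taken out, these were 0.19, -0.25 and 0.15, and without control LPS replicate 4 they were -0.11, 0.21 and 0.04. The pair of 1190007I07Rik and Gm9855 had -0.81, and -0.54 with group means removed, which became -0.04 without control LPS replicate 4. Libraries share their groups, their label and their depth, so no p is given.

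Among 14938 genes with a mean log2 CPM of at least 1, the pattern most like that of Tdg was Slc23a2, a vitamin C transporter, with r = 0.83 over the 24 libraries and 0.71 with group means removed. Gm26794 (0.79) and Zfp365, another chromosome 10 gene (0.78), followed, and Tspan33 was the most unlike at -0.76. For 1190007I07Rik these were Bri3bp (0.69), Kcnh5, a potassium channel (0.68), Gabrb2, a GABA-A receptor subunit (0.68), and at the low end Dnah1, an axonemal dynein (-0.74). With group means removed the first 3 had 0.00, 0.14 and 0.17. For Gm9855 they were Ccdc108 (0.81), Thbs3 (0.74) and Dnah1 (0.69), with Pde4d, a cyclic AMP phosphodiesterase, at -0.78. With group means removed these were 0.36, 0.12, 0.25 and -0.05. For A930033H14Rik they were Anapc5, a subunit of the anaphase-promoting complex (0.80, and 0.77 with group means removed), Zfp692 (0.75) and Chd1l (0.74), with Tnks, a tankyrase, at -0.82. The levels of Anapc5 were 145 CPM in labelled Abca7 LPS, 144 in labelled Abca7 unstimulated, 137 in control LPS and 141 in control unstimulated libraries, a far narrower range than that of A930033H14Rik.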

How the data were processed

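Cortical RNA of 24 mice was measured by RNA-seq. Per the labels' protocols, RNA was extracted with TRIzol, DNase and an RNeasy kit. Alignment was to mm10 with STAR 2.5.2b, per the submitters' processing notes, and per the series design text the authors made raw gene counts with MAP-RSeq 2.1.1. The deposited counts are whole numbers with no normalization. The sources used here do not give the annotation release, the strand setting or the treatment of multiply matching reads.

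All 24 libraries entered 1 fit with a coefficient per group in edgeR 4.0.16 (R 4.3.3), after filterByExpr by group and TMM scaling. The quasi-likelihood F test was two-sided, with Benjamini-Hochberg adjustment over 21891 genes and a threshold of 0.05. Each SE is the log2 fold change over the root of F. Log2 CPM uses a prior count of 2. Single genes were also compared by exact permutation. Depth was 48149131 to 75741388 counts per library.

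The members and lists were chosen with earlier results of these data known. Genes named were the 4 members, Abca7, per member the 3 most and 1 least correlated genes and the nearest tested genes, and in each list those with the smallest p. Copies of Tdg and overlapping genes were named by sequence or position. Of 17 listed complex III gene names 16 were matched. Alternatives were RLE size factors, DESeq2 1.42.0, other filters on low counts, age or Ttr as covariates, the ribosomal RNA repeat left out, Tdg and Gm9855 summed, and leaving out each library. Alignment and shared 50-base sequences were computed from GENCODE M21 transcripts with Biopython 1.88, and promoters came from RefSeq.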

Additional observations from a re-analysis of the deposited data

Results flagged for a closer look

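Each of the 16 combinations of a gene and a group was searched for a library far from the other 5 on the log2 CPM scale, and 4 held one. Chance alone marks about 1 in 20 such groups. Tdg was lowest in control unstimulated replicate 1, at a log2 CPM of 4.70 (26 CPM), while the others had 30.6 to 31.7 CPM. 1190007I07Rik was lowest in control LPS replicate 4, at 1.68 (3.18 CPM), while the others had 4.24 to 4.76 CPM. Gm9855 was lowest in control unstimulated replicate 3, at -3.85 (0.0355 CPM, from 2 counts), while the others had 0.0964 to 0.128 CPM. The Gm9855 level of control LPS replicate 4, a log2 CPM of 1.01, was not marked by this search. A930033H14Rik was lowest in labelled Abca7 unstimulated replicate 1, at 0.70 (1.59 CPM), while the others had 3.34 to 4.44 CPM. That library also had the largest share of ribosomal RNA repeat counts, 18.668%. Whether this share bears on the level of A930033H14Rik was not tested.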

How the results depend on the processing

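Genotype differences kept their sign for all 4 genes under every alternative except the summed counts, where Gm9855 took the values of the sum. These were -0.10, -0.07 and -0.13 for LPS over both labels, in mice labelled Abca7 and in control mice, 0.06 for the interaction, and -0.19, -0.22 and -0.16 for the genotype over both stimuli, without LPS and under LPS. Tdg moved with it to -0.10 (LPS over both labels, adjusted p = 0.0525, no longer called), -0.19 and -0.22 (genotype over both stimuli and without LPS). With Ttr in the fit, Tdg had -0.06 (LPS over both labels), -0.07 (interaction, a turned sign) and -0.21 (genotype without LPS), 1190007I07Rik 0.30 (LPS in mice labelled Abca7, adjusted p = 0.0529), and Gm9855 1.20 and 2.38 (LPS over both labels and in control mice, adjusted p = 0.0705 and 0.0888). With age, Tdg had -0.08 and A930033H14Rik -0.32 (LPS over both labels), and in mice labelled Abca7 1190007I07Rik had 0.27 (adjusted p = 0.167) and A930033H14Rik -0.54, both values of A930033H14Rik now past the threshold (adjusted p = 0.0386 and 0.0176). For 1190007I07Rik there, RLE and no filter each gave 0.30 (adjusted p = 0.0503 and 0.0716). DESeq2 made calls that edgeR did not: -0.16 for Tdg in control mice (adjusted p = 0.0368), and -0.32 and -0.50 for A930033H14Rik over both labels and in mice labelled Abca7. The causes were not tested.

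Over all genes, DESeq2 called 298 for the genotype over both stimuli and edgeR 57. Counts of list genes called moved too. For the genotype, repair genes gave 1 and neighbours 2 by DESeq2, and neighbours 1 with Ttr, against 0. For LPS in control mice with Ttr, repair genes gave 2 (7 without Ttr), complex III 0 (1) and neighbours 6 (12).

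Leaving out each library in turn gave log2 ranges for LPS over both labels of -0.14 to -0.10 (Tdg), 0.34 to 1.26 (Gm9855) and -0.39 to -0.26 (A930033H14Rik). In mice labelled Abca7 they were 0.26 to 0.37 (1190007I07Rik), -0.04 to 0.09 (Gm9855) and -0.63 to -0.38 (A930033H14Rik), and in control mice -0.19 to -0.12 (Tdg) and 0.66 to 2.49 (Gm9855). The genotype difference of Gm9855 under LPS ranged from 1.84 to 3.67. Calls ranged from 0 to 1 for repair genes and for neighbours (genotype) and from 1 to 2 for complex III (LPS over both labels). No paired analysis was possible because the labels give no replicate numbers. At 2 to 14 counts per library, Gm9855 in most controls is near what the depth can resolve.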
